A study of Rattus norvegicus with 31 samples.

Results

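The rats of this comparison were aged and cognitively unimpaired (AU), and they differed in the training given shortly before CA3 was taken. Aged-Unimpaired means that a rat of 24 months had located a hidden water maze platform as well as young adults do. Of the 31 arrays of the series, 16 belong here: 8 rats trained in the Spatial task (AU-S) and 8 trained in the Non-spatial task (AU-NS), all male Long-Evans rats with 1 array per rat. Every rat swam 8 trials to a visible platform in a room it had not seen, either with the platform fixed among prominent cues (S) or with the platform moved on each trial and the cues taken away (NS). Later every rat was also given a probe trial without the platform, and tissue was taken right after that swim. About 2 hours after the start of training CA3 was dissected by hand, so that each array holds RNA of all the cells of that tissue piece, pooled over the hemispheres of 1 animal. No rat went without training, and swimming, handling and the new room are shared by both groups. The other 15 arrays, from aged impaired rats (AI) given the same tasks (8 AI-S and 7 AI-NS), are used only to set their task difference beside that of AU rats.

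CA3 pyramidal neurons receive mossy fibers from dentate granule cells and contact one another through recurrent collaterals, and this circuit is known for the fast storage of new places and events. When neurons fire strongly, calcium entry switches on immediate early genes within minutes, among them transcription factors such as Fos and Egr1 and effectors that act at synapses such as Arc and Bdnf. Most of these transcripts rise and fall quickly, so that a single time point catches some of them on the way down.

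The values were log2 intensities made by the authors with gcRMA, a method that subtracts background and summarizes the probes of a probeset, which is the set of short probes that reads 1 transcript. Array medians lay between 8.99 and 9.08 in AU-S and between 9.0 and 9.09 in AU-NS. A difference below is AU-S minus AU-NS in log2 units, so that 1 is a doubling, and limma gives its standard error (SE). Where 2 numbers joined by "to" follow a difference in parentheses, they are its 95% interval, printed for differences with an unadjusted p under 0.05. RNA length was read from control probesets of Gapdh and beta-actin, whose 3′ value exceeds the 5′ value by more where RNA is shorter. This excess ranged from 1.41 to 1.72 in AU-S and from 1.28 to 1.52 in AU-NS, and the means of 1.48 and 1.42 did not differ beyond the spread (two-sided exact permutation test, p = 0.188). AU-S replicate 5 stood apart at 1.72, while the other AU-S arrays reached at most 1.51.

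No probeset passed limma's test of spatial against non-spatial training in AU rats, and the gene differences described below are values with their errors. The SAM statistic, run as an alternative at a false discovery rate of 0.1, called Folh1, Prr5l and Cdh12, all lower in AU-S. The study's own SAM comparison of AU-S and AU-NS reported no gene at that rate, and the reason for this difference was not tested. At an adjusted p under 0.1, limma called 0 of 16204 probesets (0%), and the smallest adjusted p was 0.605. Before adjustment 1316 probesets (8.12%) had a p under 0.05, of which 568 were higher (3.51%) and 748 lower (4.62%) in AU-S. The counts of higher and lower list members below use this unadjusted level, and no member passed the adjustment. With each array centred on its median the split was 734 higher and 631 lower, which is 53.8% higher in place of 43.2%. Differences were small, with a median size of 0.07 and a median SE of 0.08 on the log2 scale. For 91.7% of probesets the 95% interval of the difference lay within 0.5 log2 on either side of 0, and for 99.0% it lay within 1. The separation of whole profiles did not pass its test either: with 1 minus Pearson's correlation as distance, arrays of different tasks were on average 0.0129 apart and arrays of the same task 0.0126 (one-sided exact permutation test of the difference, p = 0.128). All 8 AU-NS arrays were nearer to their own task on average, but of the AU-S arrays 3 were.

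**Figure D1:**
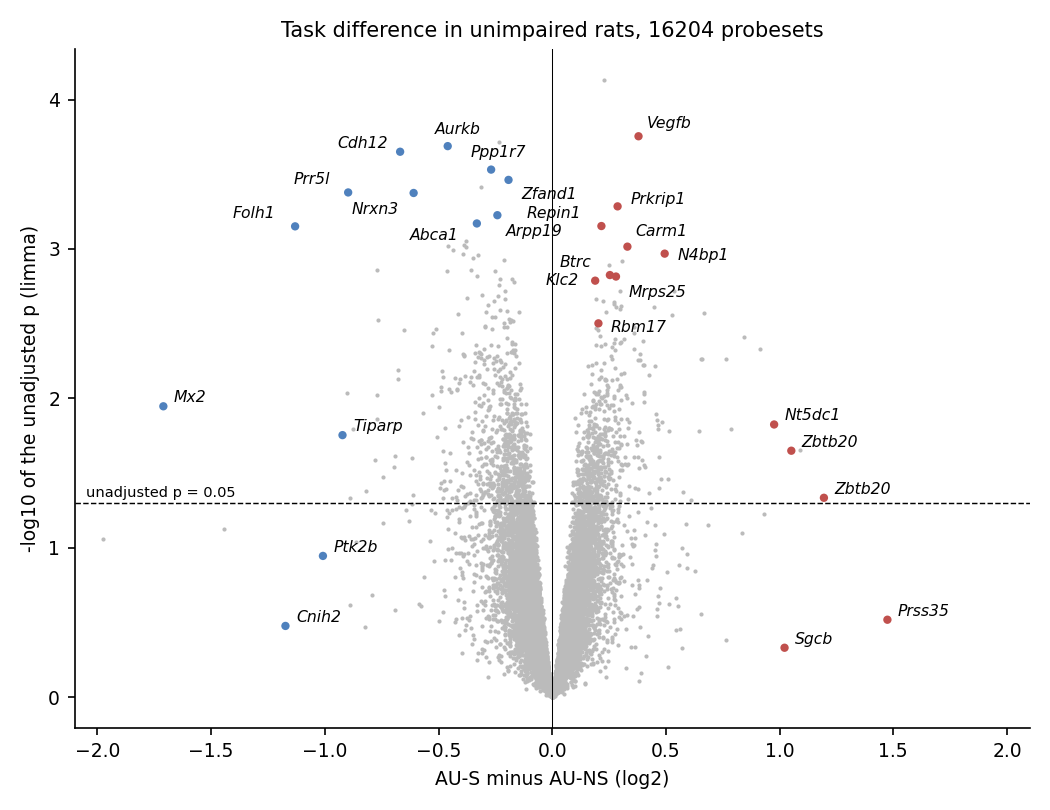
Each point is 1 of 16204 probesets, with the AU-S minus AU-NS difference on the log2 scale (horizontal axis) and minus log10 of limma's unadjusted p (vertical axis). Colored points are named probesets with a higher (red) or lower (blue) value in AU-S. Differences of 1 log2 or more are few, and several of them, such as Prss35, Sgcb and Cnih2, lie below the dashed line at an unadjusted p of 0.05.

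Named genes with the smallest p for a higher value in AU-S were Vegfb, Prkrip1, Repin1, Carm1, N4bp1, Btrc, Mrps25 and Klc2, by 0.19 to 0.49 log2. Vegfb encodes a ligand of the vascular endothelial growth factor family. The lowest, median and highest AU-S values were 8.07, 8.27 and 8.51, against 7.57, 7.87 and 8.15 in AU-NS. 6 of 8 AU-S arrays lay above the whole AU-NS range. The difference was 0.38 (0.21 to 0.55), or 1.30-fold, with an adjusted p of 0.605. Carm1 methylates arginines of histone H3 and of splicing factors. It had 8.16, 8.46 and 8.69 in AU-S and 7.90, 8.08 and 8.26 in AU-NS, a difference of 0.33 (0.16 to 0.51). N4bp1, a binding partner of the ubiquitin ligase Nedd4, showed a difference of 0.49 (0.23 to 0.76), with AU-S values of 6.36 to 7.10 (median 6.67) and AU-NS values of 5.72 to 6.57 (median 6.18). Its other probeset had 0.12. Prkrip1, a protein that binds double-stranded RNA, had 0.29 (0.15 to 0.43), and Repin1, a zinc finger protein, 0.22 (0.11 to 0.33). Mrps25 of the small mitochondrial ribosomal subunit had 0.28 (0.12 to 0.44), and Klc2, a light chain of the kinesin motor, 0.19 (0.08 to 0.30). Btrc, the substrate receptor of a ubiquitin ligase, had 0.25 (0.11 to 0.40) at 1 probeset and -0.05 at its brightest.

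In the other direction the smallest p belonged to Aurkb, Cdh12, Ppp1r7, Zfand1, Prr5l, Nrxn3, Arpp19 and Abca1, by -0.90 to -0.19 log2. Aurkb, a kinase of chromosome segregation, gave 8.07, 8.31 and 8.53 as lowest, median and highest AU-S values and 8.39, 8.75 and 9.16 in AU-NS. 7 of 8 AU-NS arrays lay above all AU-S arrays. The difference was -0.46 (-0.67 to -0.25). Cdh12, a cadherin of neuronal contacts, had 7.39, 7.83 and 8.37 in AU-S and 8.21, 8.62 and 9.005 in AU-NS. Its difference of -0.67 (-0.97 to -0.37) stood beside an AI value of 0.07. Prr5l, which binds the kinase complex mTORC2, had AU-S values of 3.87 to 5.59 (median 4.70), AU-NS values of 5.18 to 6.31 (median 5.74) and a difference of -0.90 (-1.33 to -0.46). Nrxn3, a presynaptic adhesion molecule, had -0.61 (-0.90 to -0.31) at 1 probeset and 0.02 at its brightest. Both Ppp1r7, a regulatory subunit of protein phosphatase 1, at -0.27 (-0.39 to -0.14), and Arpp19, an inhibitor of protein phosphatase 2A that protein kinase A phosphorylates, at -0.24 (-0.36 to -0.12), had negative values at their other probesets too (Ppp1r7 -0.14, Arpp19 -0.18 and -0.16). Abca1, which exports cholesterol from cells, had -0.33 (-0.50 to -0.16) at its brightest probeset, while its other probesets had 0.05 and -0.43.

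Complete separation of the groups was rare. The 8 AU-S and 8 AU-NS arrays did not overlap in 6 of 16204 probesets (0.037%), with 3 higher and 3 lower, and 4 of these carry no gene name. The named ones are Zfand1, a zinc finger protein of stress granules, and Rbm17, a splicing factor of the U2AF-like family. Zfand1 had AU-S values of 7.95 to 8.14 (median 8.07) and AU-NS values of 8.14 to 8.35 (median 8.28), a difference of -0.19 (-0.28 to -0.10), and the gap between the groups was 0.0062 log2. Rbm17 had AU-S values of 10.72 to 11.09 (median 10.81) and AU-NS values of 10.50 to 10.71 (median 10.67), a difference of 0.20 (0.08 to 0.33), with a gap of 0.0062. Other probesets of Rbm17 had 0.09 and -0.06. In AI rats the Zfand1 and Rbm17 differences were 0.02 and 0.02.

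**Figure D2:**
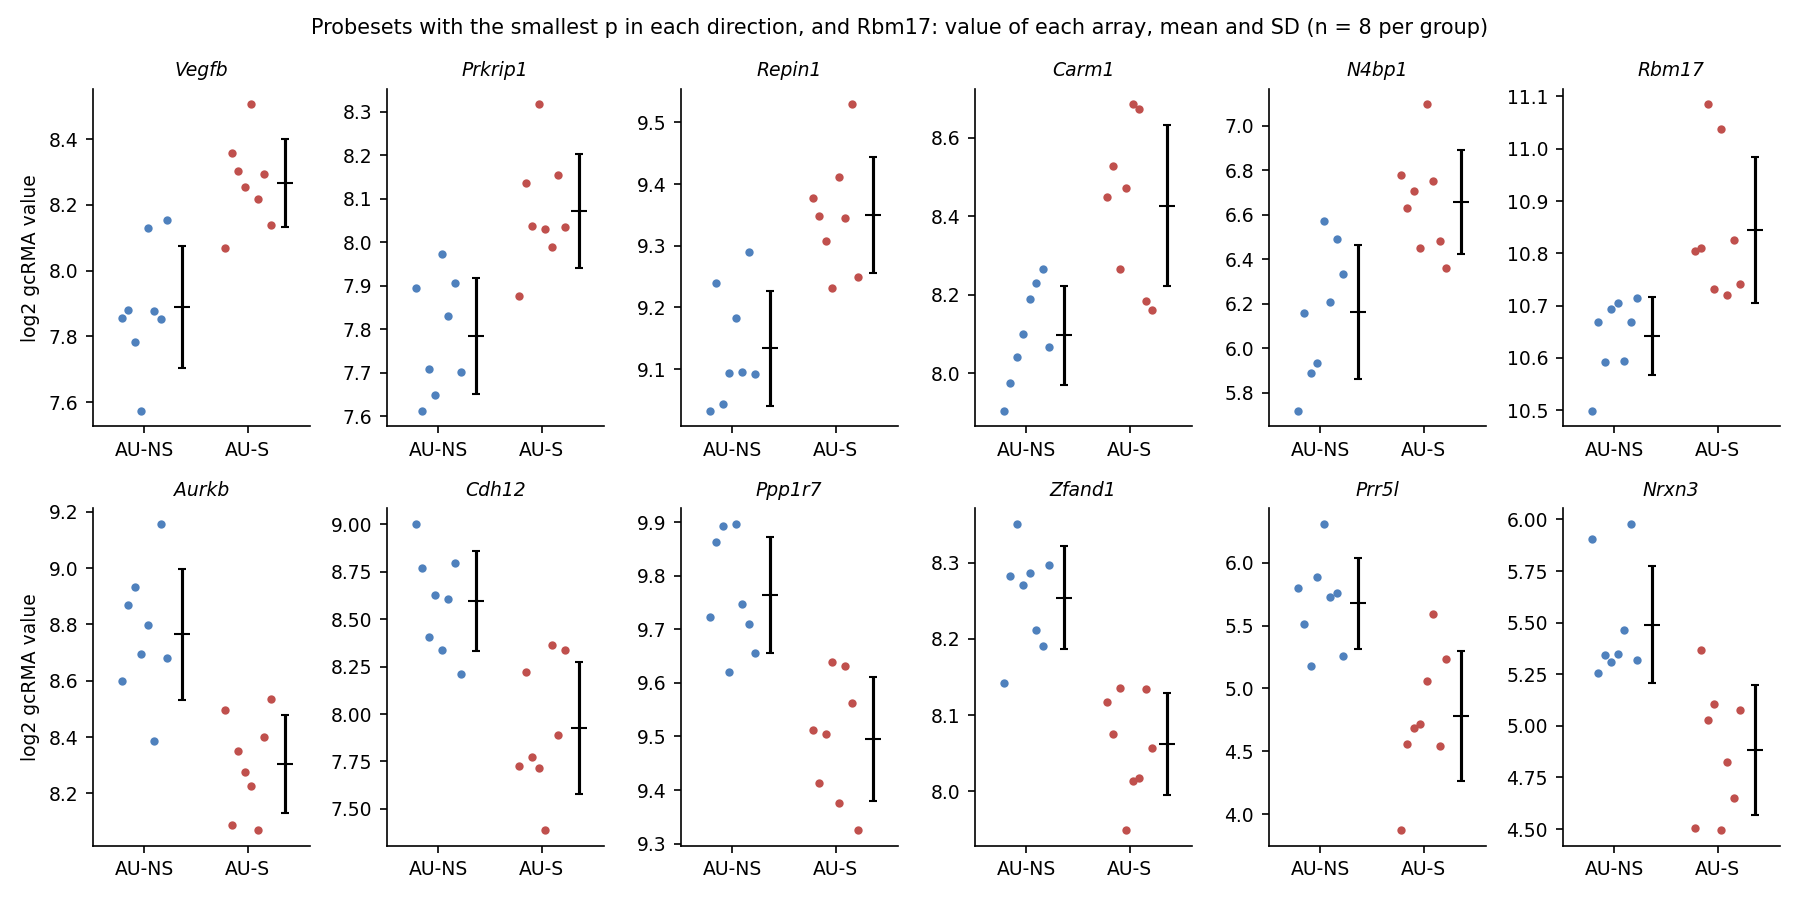
Log2 gcRMA value (vertical axis) of each AU-NS (blue) and AU-S (red) array for the probesets with the smallest p in each direction and for Rbm17, with the mean and SD of 8 arrays in black. Axes differ between panels and do not start at 0. The groups are apart in the Zfand1 and Rbm17 panels and overlap by 1 or more arrays in the other panels.

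The largest differences were mostly those of variable probesets. Folh1, the glutamate carboxypeptidase that cleaves the neuropeptide NAAG, combined size with a small p: AU-S values were 4.69 to 5.87 (median 5.23), AU-NS values 5.49 to 7.64 (median 6.61), and the difference was -1.13 (-1.71 to -0.55), or 2.19-fold lower. Its brightest probeset had -0.41 (-0.69 to -0.12). Mx2, an interferon-induced GTPase, had -1.71 (-2.98 to -0.44) with AU-S values of 3.05 to 6.20 (median 4.27) and AU-NS values of 3.90 to 8.12 (median 6.67), while its brightest probeset went the other way at 0.57 (0.02 to 1.13). Wide spread within both groups was seen for Prss35, a protease-like protein, with a difference of 1.47 (SE 1.39), and values ran from 1.31 to 11.71 among AU-S rats alone. Likewise Sgcb, a sarcoglycan, had 1.02 (SE 1.38). Cnih2, an auxiliary subunit of AMPA receptors, had -1.17 (SE 1.18): AU-S replicate 6 was at 2.96 where the AU-S median was 12.93, and without that array the difference was 0.09. Ptk2b, the calcium-activated kinase Pyk2, had -1.01 (SE 0.60) with AU-S values of 7.47 to 11.96 (median 11.67). Nt5dc1, a nucleotidase-like protein, had 0.98 (0.22 to 1.74) and Tiparp, a poly(ADP-ribose) polymerase, had -0.92 (-1.66 to -0.18) at 1 probeset and -0.20 at its brightest.

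Zbtb20, a transcription factor that specifies CA1 pyramidal identity, had a difference of 1.19 (0.02 to 2.37) at 1 probeset and 1.05 (0.17 to 1.93) at a second. The first ran from 7.64 to 9.80 in AU-S and from 5.15 to 9.58 in AU-NS. Its other probesets, the brightest included, lay between -0.13 and 0.03. AU-NS arrays also included 3 that were low in CA1 marker genes, with values given below, and the part of those markers in the Zbtb20 difference was not tested.

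Of the genes that neuronal activity induces, Fosb was higher in AU-S at an unadjusted p under 0.05, and no other member reached that level at its brightest probeset. Of the dimmer probesets 1 did, that of Tiparp with the value above. Among 19 measured immediate early transcription factors, 1 was higher at an unadjusted p under 0.05 and 0 lower, where 4.04% of all genes were higher and 4.02% lower by their brightest probeset. The differences ran from -0.25 to 0.17 with a median of 0.04 (0.00 over all genes), and 13 of 19 were positive. Among 23 activity-regulated effectors 0 were higher and 0 lower, the median was -0.01 and 10 were positive. The 95% interval lay within 0.5 log2 of 0 for 18 of the 19 transcription factors and 20 of the 23 effectors. Egr3 and Npas4 were among the 9 transcription factors and 13 effectors of these lists that no probeset named here reads, and they were not analysed.

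Calcium signals reach several of these genes through short promoter elements, and members that hold one are shown so that their values can be read side by side. The cAMP response element (CRE, letters TGACGTCA, the same on both strands) binds CREB, and the CArG box binds serum response factor (SRF). RefSeq promoter windows (250 bases before to 50 after the gene start, rat build GRCr8) were found for 35 of 42 members. The CRE stood in those of 6 members, against 1.83% of 33469 windows in all, and a CArG box in those of 5, against 1.64%. A member counts if any of its windows holds the element, while the percentages are of single windows, so the units differ. Stretches upstream of the start are printed 5′ to 3′ in the direction of the gene, with the CRE in capitals for Dusp1, chr10:17184713-17184752 (plus strand), Vgf, chr12:25277087-25277126 (minus strand), Scg2, chr9:88256966-88257005 (minus strand), and Plk2, chr2:43702454-43702493 (plus strand), and with the CArG box in capitals for Egr2, chr20:21054499-21054540 (minus strand), and Srf, chr9:21923979-21924020 (plus strand).
Dusp1: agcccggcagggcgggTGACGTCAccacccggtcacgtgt
Vgf: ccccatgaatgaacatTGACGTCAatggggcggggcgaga
Scg2: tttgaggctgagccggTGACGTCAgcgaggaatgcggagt
Plk2: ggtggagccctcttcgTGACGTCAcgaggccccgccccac
Egr2: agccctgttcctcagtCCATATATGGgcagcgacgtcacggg
Srf: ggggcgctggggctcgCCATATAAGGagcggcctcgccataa
Members with the CRE had differences of -0.37 (Dusp1), 0.14 (Vgf), 0.00 (Scg2), 0.06 (Plk2), 0.15 (Jund) and -0.11 (Crem). Members with the CArG box had 0.08 (Egr1), 0.06 (Egr2), 0.05 (Srf), -0.05 (Dusp5) and 0.00 (Klf6). Members with the CRE had values of both signs, and none in either set reached an unadjusted p under 0.05.

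Fosb is a partner of Jun in the AP-1 factor, with a long-lived splice product. Its lowest, median and highest values were 4.87, 5.08 and 5.20 in AU-S and 4.66, 4.90 and 5.04 in AU-NS. 5 of 8 AU-S arrays lay above all AU-NS arrays, and the difference was 0.17 (0.03 to 0.31, adjusted p = 0.605). Fos itself had 8.56, 8.92 and 9.15 in AU-S and 8.58, 8.84 and 9.41 in AU-NS. The groups overlapped almost wholly, and the difference was 0.02 (SE 0.13). Junb had 0.17 (SE 0.11), Jund 0.15 and Jun -0.04.

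Egr1, the zinc finger factor also called Zif268, had 11.62, 11.75 and 11.89 in AU-S and 11.42, 11.66 and 12.14 in AU-NS. No AU-S array lay above the AU-NS range, since AU-NS replicate 7 was the highest of all 16, and the difference was 0.08 (SE 0.08). Egr2 had 0.06 (SE 0.14) and Egr4 0.04 (SE 0.06). The orphan nuclear receptors Nr4a1, Nr4a2 and Nr4a3 had 0.05, 0.04 and -0.11. Nfil3, a basic leucine zipper factor, had 0.16 (SE 0.09), and the Krüppel-like factor Klf10 had -0.13 (SE 0.07).

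Effectors at the synapse and in signaling ranged from -0.37 to 0.16. Arc, which acts at dendrites in AMPA receptor endocytosis, had 9.997, 10.35 and 10.999 in AU-S and 9.90, 10.09 and 10.51 in AU-NS, with AU-S replicate 4 alone above the AU-NS range. The difference was 0.16 (SE 0.13). Bdnf, the neurotrophin, had 8.62, 8.68 and 8.81 in AU-S and 8.26, 8.62 and 8.88 in AU-NS, and 4 AU-NS arrays lay below every AU-S array. Its difference was 0.10 (SE 0.08). Homer1, a postsynaptic scaffold, had -0.07 at its brightest probeset and -0.12 to 0.15 at 4 others, so that its probesets disagreed in sign. Dusp1, the phosphatase that switches off MAP kinases, had the difference farthest from 0 among the effectors at -0.37 (SE 0.23), with AU-S values of 7.65 to 9.35 (median 8.96) and AU-NS values of 8.32 to 9.54 (median 9.33). A second Dusp1 probeset had -0.26. Ptgs2, the inducible cyclooxygenase, had -0.21 (SE 0.11) and Tiparp -0.20 (SE 0.15). In AI rats the same contrast had a median of -0.03 for the transcription factors and -0.02 for the effectors, and Dusp1 stood at 0.31.

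**Figure D3:**
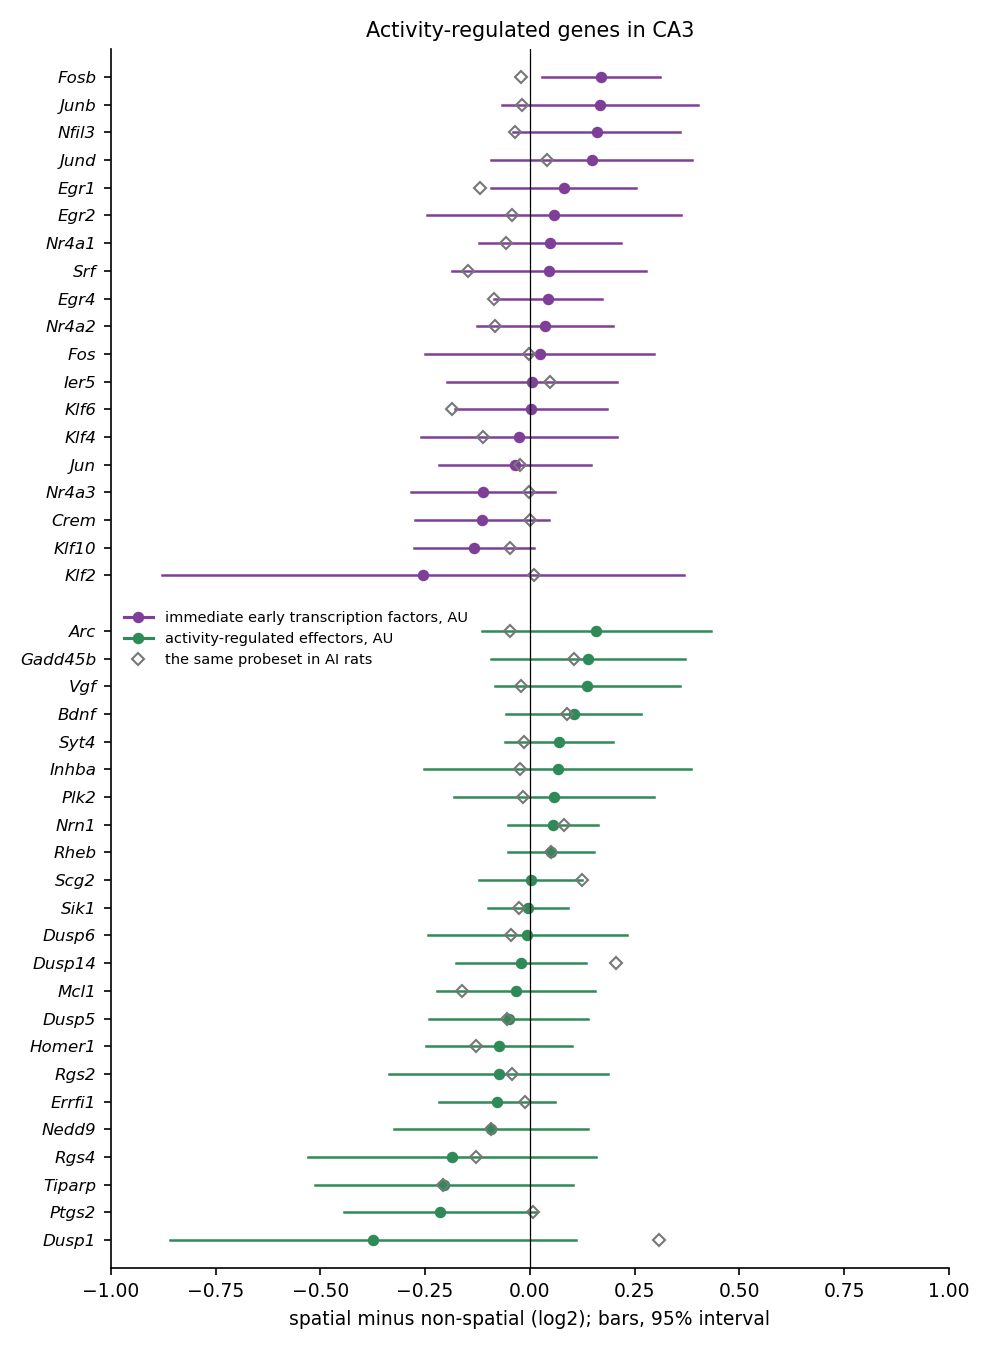
Spatial minus non-spatial difference on the log2 scale (horizontal axis) of each measured immediate early transcription factor (purple) and activity-regulated effector (green) in AU rats, with 95% intervals from limma. Grey diamonds give the same probeset in AI rats. The interval of Fosb alone stays clear of 0.

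Genes that answer to stress hormone and to the time of day came next. Among 20 glucocorticoid receptors and responsive genes 2 were lower and 0 higher at an unadjusted p under 0.05, with a median of 0.01. Nr3c1, the glucocorticoid receptor, had 10.43, 10.62 and 10.75 in AU-S and 10.62, 10.83 and 10.95 in AU-NS, a difference of -0.21 (-0.33 to -0.09, adjusted p = 0.605). Sgk1, a kinase that corticosterone induces, had 13.08, 13.64 and 14.10 in AU-S and 13.64, 13.85 and 14.23 in AU-NS, a difference of -0.27 (-0.53 to -0.01). Both genes also had negative values in AI rats, at -0.14 and -0.16. Tgm2, a transglutaminase, had 0.23 (SE 0.17). Of 18 clock genes none passed in either direction (median 0.05). Tef, an output factor of the clock, had 0.25 (SE 0.15), and the clock kinases Csnk1e and Csnk1d had 0.09 (SE 0.06) and 0.07 (SE 0.05).

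The borders of the dissection were read from genes that mark the neighboring fields. In bulk tissue, fewer cells of a type and less RNA per cell cannot be told apart. CA3 markers were present: Nnat lay between 12.60 and 13.25 on the 16 arrays. The 6 measured CA3 genes had differences of -0.09 to 0.07 (median -0.02). Cpne4 had -0.09 (SE 0.05), Nectin3, an adhesion molecule, -0.09 (SE 0.10) and Nnat 0.07 (SE 0.09). Of 7 dentate granule markers none passed, and their median was -0.07. Prox1, the factor that sets granule cell identity, had 7.77, 8.50 and 9.25 in AU-S and 8.32, 8.70 and 9.25 in AU-NS, a difference of -0.24 (SE 0.18). Calb1, the calcium buffer calbindin, had -0.07 (SE 0.13), Stxbp6 -0.15 (SE 0.08) and Maml2 0.17 (SE 0.11). The mean of the granule markers on an array, centred over the 16 arrays, ran from -0.30 to 0.42 in AU-S, highest in replicate 4, and from -0.17 to 0.13 in AU-NS.

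CA1 markers ranged widely between rats. Their centred mean ran from -0.19 to 0.48 in AU-S and from -0.75 to 0.47 in AU-NS, where replicates 1, 4 and 6 were at -0.51, -0.52 and -0.75. 5 of 7 members were positive with a median of 0.14, and none passed at an unadjusted p under 0.05. Without AU-NS replicate 1 the median was 0.02 with 4 of 7 positive, without AU-NS replicates 4 and 6 in turn it was 0.05 each time, without AU-S replicates 3 and 7 in turn it was 0.09 and 0.08, and without AU-NS replicates 2 and 3 in turn it was 0.22 and 0.21. The medians of the array means went the other way, at -0.01 in AU-S and 0.01 in AU-NS. Fibcd1, a CA1-enriched surface protein, had 0.24 (SE 0.29), Wfs1, the wolframin gene, 0.19 (SE 0.24) and Mpped1 0.14 (SE 0.18). With the granule and CA1 scores as covariates limma called 0 probesets (smallest adjusted p 0.312), while 1455 were under 0.05 before adjustment.

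Among 7 CA2 markers 1 was higher. Amigo2, an adhesion molecule of CA2 and CA3 neurons, had 9.67, 10.07 and 10.30 in AU-S and 9.50, 9.76 and 9.95 in AU-NS, with 5 AU-S arrays above the AU-NS range. The difference was 0.30 (0.09 to 0.51). Rgs14, a suppressor of plasticity in CA2, had 0.12 (SE 0.08) and Stard5 0.10 (SE 0.09), while Pcp4 and Ptpn5 had 0.05 and 0.00. Markers of nearby tissue outside the hippocampus held none: of 4 thalamus markers 0 passed (Prkcd -0.11, Lhx9 0.09, Lef1 -0.08), and of the choroid plexus list the 2 measured members, Enpp2 and Igf2, had -0.20 (SE 0.10) and -0.02 (SE 0.10). Ttr, the transthyretin gene and the usual mark of choroid plexus, is not among the probesets named here.

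**Figure D4:**
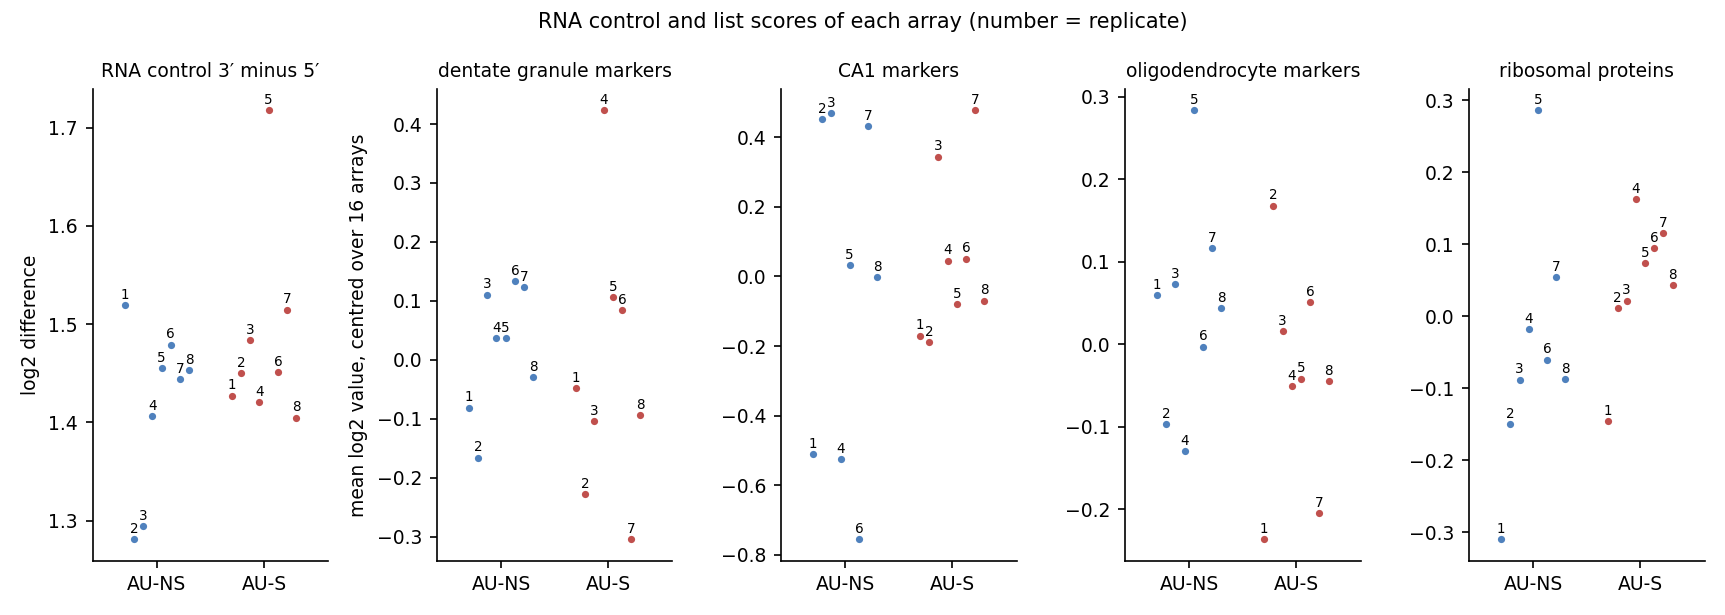
Value of each AU-NS (blue) and AU-S (red) array, with its replicate number, for the 3′ over 5′ excess of the Gapdh and beta-actin controls (log2, left panel) and for the mean of 4 gene lists (log2, centred over the 16 arrays). AU-S replicate 5 is alone at the top of the first panel, AU-NS replicates 1, 4 and 6 are low for CA1 markers, and AU-NS replicates 1 and 5 are the lowest and highest for ribosomal proteins.

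Markers of glia and vessels held at most 1 member under that level for each cell type. 12 of 15 oligodendrocyte and myelin genes were negative with a median of -0.10, and 1 passed at an unadjusted p under 0.05. This was Opalin, a membrane protein of myelinating cells, with 10.02, 10.32 and 10.65 in AU-S, 10.36, 10.64 and 10.93 in AU-NS and a difference of -0.32 (-0.52 to -0.11). Ugt8, which makes the galactolipids of myelin, had -0.21 (SE 0.11) and Mal, a myelin proteolipid, -0.15 (SE 0.09). The centred mean of the list ran from -0.24 to 0.17 in AU-S and from -0.13 to 0.28 in AU-NS, so that the groups overlapped over most of their range. Among 13 astrocyte genes 1 was lower, Slc1a2, the glial glutamate transporter GLT-1: 8.71, 8.96 and 9.21 in AU-S, 9.01, 9.15 and 9.24 in AU-NS and a difference of -0.20 (-0.32 to -0.07). Its other probeset had -0.40. Slc4a4, a bicarbonate transporter, had -0.11 (SE 0.07) and Mlc1 0.10 (SE 0.06).

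Of 10 microglial genes 1 was higher: Aif1, which encodes Iba1, had 7.72, 7.94 and 8.71 in AU-S, 7.23, 7.64 and 8.56 in AU-NS and a difference of 0.36 (0.02 to 0.71), with replicate 5 the highest array of each group. Ctss, a lysosomal protease, had 0.14 (SE 0.09) and Laptm5 0.18 (SE 0.14). None of 11 endothelial and blood genes passed, where Slc2a1, the glucose transporter of the blood-brain barrier, had 0.10, Vwf -0.16 and Slco1a4 -0.14. Among 12 interneuron markers 1 was lower, Nxph1, a neurexin ligand, at -0.26 (-0.50 to -0.02), and its 2 other probesets had -0.25 and -0.18. Cck had 0.16 (SE 0.11) and Reln -0.24 (SE 0.18).

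At the synapse, most genes of inhibition had negative values. 14 of 18 genes of GABA synthesis, transport and receptors, with the glycine receptor gene Glrb counted among them, were negative (median -0.03). At an unadjusted p under 0.05, 2 were lower, Gabra4 and Glrb, and 0 higher. Over all genes 50.8% were positive, 4.02% were lower and 4.04% higher. Gabra4, a GABA-A receptor subunit found mainly outside synapses, had 8.28, 8.50 and 8.89 in AU-S and 8.63, 8.96 and 9.19 in AU-NS, and 6 AU-NS arrays lay above every AU-S array. The difference was -0.39 (-0.60 to -0.18). Glrb, the glycine receptor beta subunit that binds gephyrin, had -0.10 (-0.18 to -0.02), while its other probeset had -0.04. Gabra5, a subunit of tonic inhibition, had -0.06 (SE 0.04). The GABA-B subunits had positive values at their brightest probesets, 0.12 (SE 0.07) for Gabbr1 and 0.16 (SE 0.09) for Gabbr2, and other probesets of both went to -0.28 and -0.16.

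Among 15 glutamate receptor genes 1 was higher, Grin2c, an NMDA receptor subunit, at 0.21 (0.04 to 0.38). Gria1, an AMPA receptor subunit, had 11.35, 11.63 and 12.18 in AU-S, 11.15, 11.25 and 11.96 in AU-NS and a difference of 0.26 (SE 0.13), with 5 AU-NS arrays below every AU-S array. The metabotropic receptor Grm3 had -0.22 (SE 0.11). Of 30 genes of the active zone and of vesicle fusion 2 were higher and 0 lower. Syp, the vesicle protein synaptophysin, had 12.91, 13.14 and 13.38 in AU-S and 12.94, 13.03 and 13.08 in AU-NS, so that 7 AU-S arrays were above the AU-NS range, and the difference was 0.12 (0.01 to 0.24). Syn1 had 0.11 (0.01 to 0.22) and Syn2 -0.14 (SE 0.07), the first positive and the second negative at all their probesets. Endocytosis was covered by 24 genes: 2 were higher, Ap3b2, a neuronal adaptor subunit, at 0.19 (0.07 to 0.31) and Itsn1, a scaffold, at 0.13 (0.02 to 0.24), and 1 was lower, the phosphatase Synj1 at -0.15 (-0.29 to -0.01).

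Lists of growth factors, kinases and channels each held 0 to 3 members in a direction. A list of 11 genes held neurotrophins, their receptors and other receptors. In it 1 was higher, Nptxr, a neuronal pentraxin receptor, at 0.10 (0.02 to 0.17). The 2 lower were the GDNF co-receptor Gfra1 at -0.24 (-0.45 to -0.04) and Igf1r at -0.20 (-0.39 to -0.01), whose other probeset had 0.30. None of these is a neurotrophin or a neurotrophin receptor. Among 32 plasticity kinases and scaffolds 1 was higher, the postsynaptic scaffold Shank1, at 0.20 (0.02 to 0.38). Camk2b had 0.09 (SE 0.05) and Prkce -0.12 (SE 0.07). No potassium channel gene of 27 passed, with Kcnip1 at -0.28 (SE 0.14), Kcnh1 at -0.15 and Kcnmb4 at 0.14. Of 27 sodium and calcium channel genes 3 were higher, among them Cacnb1, a calcium channel beta subunit, at 0.17 (0.06 to 0.29) and Cacna1a, the P/Q-type pore, at 0.26 (0.04 to 0.48), and 2 were lower, among them the sodium channel Scn1a at -0.13 (-0.23 to -0.03). The 16 neuropeptides and granins gave none in either direction (Chga 0.15, Vgf 0.14, Cck 0.16).

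Genes of protein synthesis, respiration and protein turnover had mostly positive differences. 37 of 39 cytosolic ribosomal protein genes had positive differences, ranging from -0.07 to 0.28 with a median of 0.10, where 50.8% of all genes were positive. 7 passed at an unadjusted p under 0.05 and all of these were higher (background 4.04%), and none passed the adjustment. Rps28 had 11.55, 11.71 and 11.79 in AU-S, 10.97, 11.40 and 11.80 in AU-NS and a difference of 0.28 (0.09 to 0.47). Rpl39 had 0.11 (0.02 to 0.21) and Rpl27a 0.17 (0.02 to 0.32). Of 47 subunits of oxidative phosphorylation 37 were positive (median 0.06), 8 higher and 1 lower at an unadjusted p under 0.05, with the complex I subunits Ndufs6 at 0.20 (0.05 to 0.36), Ndufa6 at 0.21 (0.04 to 0.37) and Ndufv2 at 0.23 (0.04 to 0.42). Of 34 proteasome subunits 26 were positive (median 0.06) and 5 were higher, among them the activator subunit Psme1 at 0.16 (0.02 to 0.31), Psma4 at 0.12 (0.01 to 0.23) and Psmd4 at 0.17 (0.01 to 0.32).

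Single arrays changed the size of these medians. The centred mean of the ribosomal genes ran from -0.15 to 0.16 in AU-S (median 0.06) and from -0.31 to 0.29 in AU-NS (median -0.07), with AU-NS replicate 1 the lowest and AU-NS replicate 5 the highest of the 16. Without AU-NS replicate 1 the median difference was 0.06 for ribosomal genes (28 of 39 positive), 0.01 for respiration (24 of 47) and 0.02 for the proteasome (21 of 34). Without AU-NS replicate 5 they were 0.15, 0.10 and 0.08, and 22 ribosomal genes passed as higher at an unadjusted p under 0.05. Over all 16204 probesets 726 passed as higher without AU-NS replicate 5, 364 without AU-S replicate 5 and 568 with every array. Without AU-S replicate 5, the array with the largest 3′ excess, 3 ribosomal, 4 respiratory and 0 proteasome genes passed as higher, and the medians were 0.09, 0.06 and 0.05. With that excess as a covariate 1, 2 and 0 passed as higher, beside 182 of 9037 genes in all. The medians were then 0.09, 0.07 and 0.06, with 37 of 39, 42 of 47 and 27 of 34 positive, about as large as without the covariate. In AI rats, which share no array with AU rats, the medians were 0.12, 0.14 and 0.10, and 39 of 39, 47 of 47 and 31 of 34 members were positive. Of these lists 0, 4 and 3 members were higher in AI rats at an unadjusted p under 0.05, and 0 were lower. Over all genes 52.3% were positive in AI rats. Over all 16204 probesets 335 were higher and 327 lower in AI rats at that level. Members of a list are read on the same arrays and are not independent. AI-NS replicate 8 had a 3′ excess of 1.92, larger than that of any AU array.

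**Figure D5:**
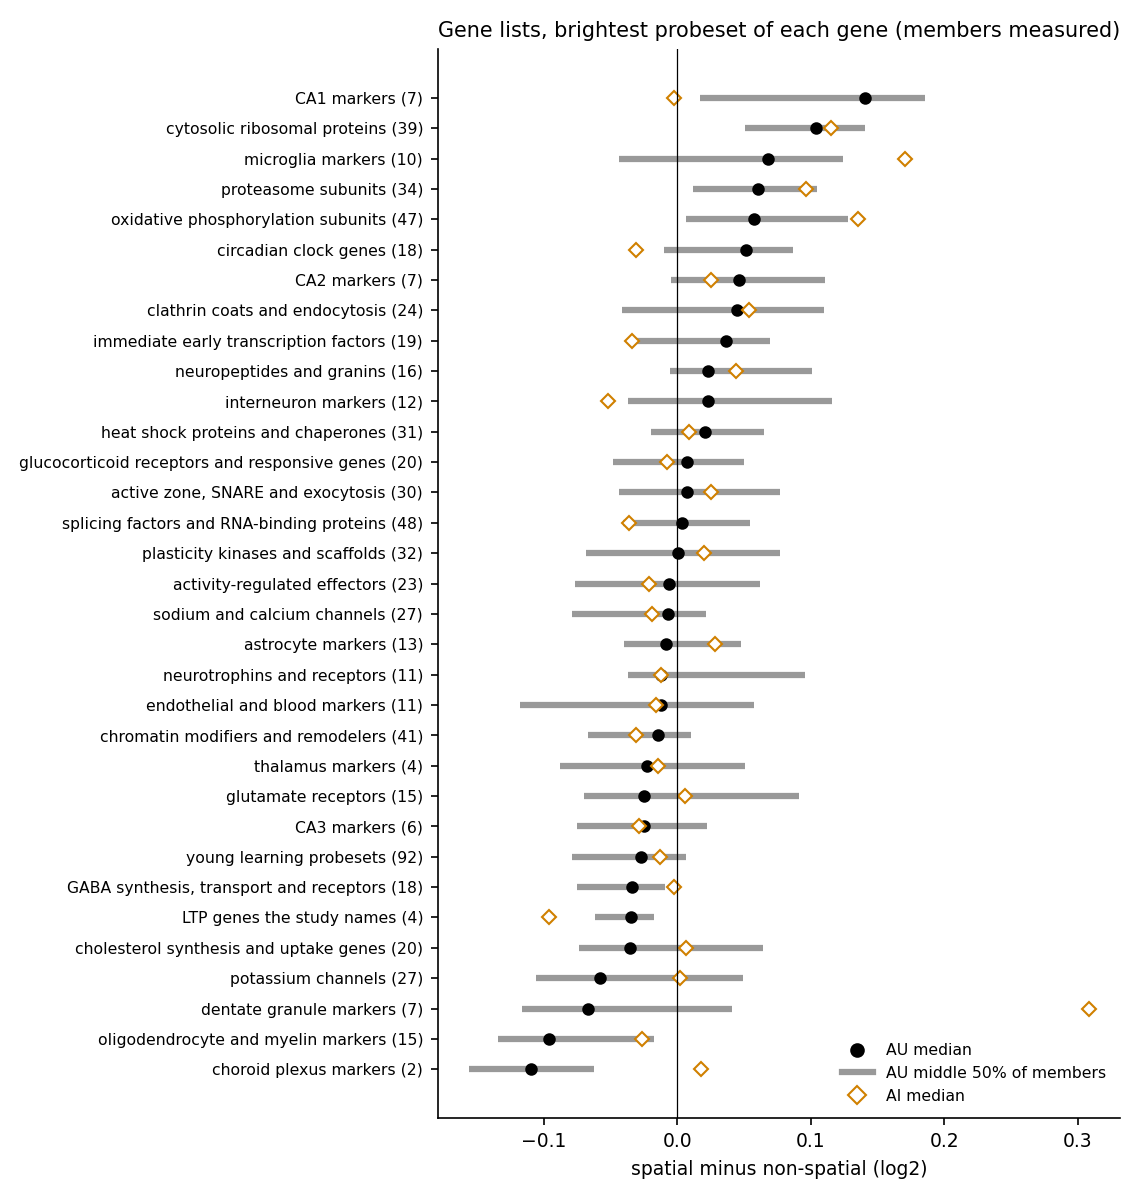
Median spatial minus non-spatial difference on the log2 scale (horizontal axis) of each gene list, with the number of measured members in parentheses. Black points are the AU median, grey bars the middle 50% of members in AU rats, and open diamonds the AI median. Ribosomal, respiratory and proteasome genes are above 0 in both AU and AI rats, and dentate granule markers are at -0.07 in AU and 0.31 in AI rats.

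Of 41 chromatin modifiers and remodelers 5 were lower and 0 higher at an unadjusted p under 0.05, with a median of -0.01. Over all genes 4.02% were lower and 4.04% higher. Over all 68 probesets of these chromatin genes 6 were lower and 2 higher. With the Gapdh and beta-actin control difference as a covariate 1 of the 41 was lower and 0 were higher. Over all 16204 probesets that covariate changed the lower count from 748 to 451 and the higher count from 568 to 322. The 5 chromatin genes lower without the covariate included the histone demethylases Kdm5a at -0.16 (-0.28 to -0.04) and Kdm6b at -0.33 (-0.58 to -0.07) and the remodeler subunit Bptf at -0.19 (-0.35 to -0.04). Another probeset of Kdm5a had 0.47, so that the sign for this gene depends on the probeset. Among 48 splicing factors and RNA-binding proteins 4 were higher and 0 lower: Celf2 had 0.24 (0.04 to 0.45), with other probesets from -0.18 to 0.24, Hnrnpab 0.19 (0.01 to 0.36) and Cd2bp2 0.11 (0.01 to 0.22), with 0.32 at its other probeset. Of 31 chaperones 1 was higher, the mitochondrial chaperonin Hspd1 at 0.10 (0.00 to 0.19), beside Hspe1 at 0.14 and Ahsa1 at 0.14. Of 20 genes of cholesterol synthesis and uptake none passed (Srebf2 0.11, Mvk -0.14, Pmvk 0.17).

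Probesets that the study links to learning in young rats and to long-term potentiation were read last. Both lists were chosen in part on these same arrays, so they are no independent evidence. Of 92 young learning probesets 1 was higher and 4 were lower at an unadjusted p under 0.05, 28 were positive and the median was -0.03. Over all probesets 47.0% were positive. With the Gapdh and beta-actin control difference as a covariate, 45 of the 92 were positive and the median was -0.003. At an unadjusted p under 0.05, 1 was then higher and 0 were lower. Over all 16204 probesets 48.5% were positive with this covariate, and 322 were higher and 451 lower at that level. Without the covariate the smallest p in this list belonged to Eps15, an endocytic adaptor, at -0.18 (-0.32 to -0.03), Dnm1l, the GTPase of mitochondrial fission, at -0.14 (-0.25 to -0.02) and Pafah1b2 at 0.11 (0.01 to 0.21), whose brightest probeset had -0.07. Of the 4 measured genes tied to long-term potentiation, App had -0.02 (SE 0.04), Ntrk2, the Bdnf receptor, -0.05 (SE 0.05) and Adam10 -0.11 (SE 0.12).

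Whether the task difference itself was different in AU and AI rats was tested as an interaction. At an adjusted p under 0.1 limma called 0 probesets, 396 (2.44%) had a p under 0.05 before adjustment, and adjusted p was above 0.99 throughout. In AI rats alone 662 probesets had an unadjusted p under 0.05 (4.09%) and 0 passed the adjustment. As a description over 16204 probesets, which are not independent, the differences of AU and AI rats had a Pearson r of 0.267 and the same sign in 62.9%, with no array in common. The probesets with the smallest interaction p went in opposite directions. Mx2 had -1.71 in AU and 1.83 in AI rats, though its brightest probeset had 0.57 and -0.29. Mmachc, an enzyme of vitamin B12 processing, had -0.39 and 0.11, and Plekha3, a lipid-binding protein of the Golgi, -0.33 and 0.17. Positive in AU and negative in AI rats were Sync, an intermediate filament protein, with 0.64 and -0.56, Bdh1, an enzyme of ketone body use, with 0.40 and -0.23, and Amigo2 with 0.30 and -0.26. The brightest Sync probeset had -0.08 and 0.08. Prox1 and Calb1, the granule cell genes, had -0.24 and -0.07 in AU against 0.60 and 0.38 in AI rats, and Gabra4 had -0.39 against 0.12. None of these interactions passed the adjustment.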

How the data were processed

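Each array held biotin-labelled RNA of hand-dissected CA3 from 1 rat on an Affymetrix rat genome array. The authors normalized the arrays with GCRMA, removed 1 outlying AI-NS array, and deposited log2 values of 16204 probesets, in which no probeset has a mean under 5. The authors' software versions are not given in the sources used here. The platform annotation gave 1 gene symbol for 12242 probesets, several for 293 and none for 3669, and a gene with several probesets is represented in list counts by the one with the highest mean over the 16 arrays.

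Differences between AU-S and AU-NS were fitted with limma 3.58.1 (lmFit and eBayes, two-sided) in R 4.3.3 on the 16 AU arrays, with Benjamini-Hochberg adjustment over all 16204 probesets and a threshold of 0.1. AI rats were fitted likewise, and the interaction on all 31 arrays. Whole-profile distance and RNA control differences were tested by exact permutation of the task labels. The scripts were tested on simulated data. Groups and replicate numbers came from the sample titles. The labels do not say which arrays were trained, extracted or scanned together, so that p-values measure the spread between these rats whatever its source. Precision is limited by the 16 arrays.

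The gene lists and members were chosen with earlier results of these data known. Named are the 8 probesets with the smallest p and the 5 with the largest difference in each direction, fixed activity-regulated and granule cell genes, the 3 members of each other list with the smallest p, the 3 with the smallest interaction p in each direction, non-overlapping probesets, and other probesets of a named gene where they disagree. Sequences were copied from RefSeq promoter windows, build GRCr8. Alternatives were the intensity limit, the prior variance, array scaling and weighting, a block for the replicate number, control differences or marker scores as covariates, a 4-group fit, a SAM statistic with 100 permutations, and leaving out each array. The hexokinase control difference as a covariate was added after seeing the data.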

Additional observations from a re-analysis of the deposited data

Results flagged for a closer look

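In 18 of 304 groups of 8 arrays, 1 array lay far from the other arrays of its group, and chance gives about 1 in 20. Cnih2 was at 2.96 in AU-S replicate 6. Ptk2b was at 10.59 in AU-NS replicate 1. Of the activity-regulated genes, Egr1 was at 12.14 in AU-NS replicate 7 and Arc at 10.999 in AU-S replicate 4.

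AU-S replicate 5 held the outlying value for Stard5 (7.01), Hspd1 (12.53), Aif1 (8.71) and the 3′ minus 5′ control difference (1.72). AU-NS replicate 5 held it for Aif1 (8.56), Lef1 (8.06), Mal (12.03), Camk2b (13.21) and Psme1 (10.27). In AU-S replicate 2 these were Slc4a4 (12.50) and Ntrk2 (13.26). The remaining values were Slc4a4 at 12.75 in AU-NS replicate 1, Vwf at 8.64 in AU-NS replicate 2 and Nptxr at 13.66 in AU-NS replicate 4.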

How the results depend on the processing

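Of 28 alternatives for a named probeset, 6 leave every difference as it was by construction (intensity limits, prior, replicate block, 4-group fit) and 22 can move it. Of 140 named probesets, which do not include every list member, 135 kept their sign under those 22. None of the 140 passed limma's adjusted p of 0.1 in any of the 28. The SAM statistic called 3 of them (Folh1, Prr5l and Cdh12) where limma called 0, and leaving out any array left limma at 0. Of probesets with an unadjusted p under 0.05 there were 1316. With the Gapdh and beta-actin control difference as a covariate there were 773, and leaving out 1 array gave 889 (without AU-S replicate 5) to 1507 (without AU-NS replicate 5). The interaction count was 396, with array weights 662, and 320 to 724 with 1 array left out, the highest without AI-NS replicate 3. The cause was not tested. Quantile normalization split the AU count into 700 higher and 678 lower. The smallest adjusted p was 0.124 with the hexokinase control difference as a covariate, an alternative chosen after seeing the data. With the replicate number as a replicate block 1256 probesets had an unadjusted p under 0.05 and none passed the adjustment. Same-numbered arrays shared only a number: their deviations correlated at -0.323 to 0.139, over 0.1 in 1 of 8 pairs, and 0 of 8 AU-S arrays correlated best with their own number. The difference in distance was 0.000337 and ran from 8.6e-05 to 0.000563 with 1 array left out.

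List members outside those 140 changed sign too. With 1 array left out, 10 to 14 immediate early transcription factors were positive (13 with every array) and 9 to 12 effectors (10 with every array). Among the 140, signs turned for 5 probesets when 1 array was left out. Cnih2 ran from -1.46 to 0.09 (0.0908, without AU-S replicate 6), Fos from -0.0198 to 0.0997, Egr2 from -0.0167 to 0.134, Lef1 from -0.142 to 0.0130 and Igf2 from -0.0654 to 0.0300, and Igf2 was at 0.0276 with array weights. Medians of the gene lists moved by less than the spread between arrays in all alternatives. For most lists that spread (SD of the array means) exceeded the median itself, so this check could hardly fail. For respiration it was 0.13 beside a median of 0.06, which fell to 0.01 without AU-NS replicate 1. The number of members under an unadjusted p of 0.05 moved by over 1.5 times in 61 of 396 list counts under other settings. With 1 array left out it did so in 157 of 528. Some medians near 0 changed sign with the scaling: centring on the array median turned those of the effectors, astrocyte markers and the sodium and calcium channels.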
